A study of Mus musculus with 4 samples.

Results

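Complement genes were followed across the cell classes of mouse spinal cord cells 3 days after a contusion injury and in uninjured cords. The 9 genes were C1qa, C1qb and C1qc (the chains of C1q), C1ra and C1s1 (the C1 proteases), C4b and C3 (the thioester proteins), and C3ar1 and C5ar1 (the anaphylatoxin receptors). They were taken by symbol, and each had 1 row among the 32287 gene rows of both count matrices. The cells came from Cx30-tdTomato mice, in which a tamoxifen-induced Cre driven from Cx30, an astrocyte gap junction gene, switches on the red reporter tdTomato. All mice, controls included, carried both transgenes and had received a library of enhancer AAVs through the blood, which per the methods was given 14 days before surgery. Mice entered the study at 8 to 12 weeks of age, and per the methods 2 to 4 animals, with equal numbers of each sex, were pooled per condition. Segments of 5 mm around the lesion, or from the same level of uninjured cords, were digested with papain and tdTomato+ cells were sorted. Each condition gave 1 gene expression library, so no difference below has a replicate check and no test was run.

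Complement is a chain of plasma and tissue proteins. C1q binds a surface and activates the proteases C1r and C1s, which cut C4 and C2. The resulting enzyme cuts C3, whose fragments coat the surface and recruit phagocytes, and the pathway ends in a membrane pore. The small fragments C3a and C5a act on the receptors encoded by C3ar1 and C5ar1. In the central nervous system microglia are the best known source of C1q, and C3 and C4 are known for their part in marking synapses and debris for uptake.

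Of 919 injured and 4159 uninjured barcodes, 879 and 4159 cells passed the filter, with a median of 6816 and 3343 UMIs (counted molecules) per cell, and 7 barcodes were shared by the libraries. Cells were clustered without any complement gene and classes were named from markers, so the name of a class is written with "-like". The astrocyte-like class held 389 injured cells (44.3% of the library) and 3077 uninjured cells (74.0%), and all 9 astrocyte markers were at 183 CPM (UMIs per 1000000 gene UMIs) or more in both. The sort also delivered microglia-like (126 injured and 31 uninjured), ependymal-like (144 and 31), fibroblast-like (43 and 95), endothelial-like (70 and 26) and oligodendrocyte progenitor (OPC)-like cells (41 and 14). The 16 mural-like cells were too few for levels, and 2 clusters with 53 injured and 882 uninjured cells, which held astrocyte markers beside neuron or myelin genes, stayed unnamed. Of the injured astrocyte-like cells, 321 (82.5%) lay in 1 cluster led by Tgm1, Vgf, Lcn2, Gfap and Ptx3, which held 12 uninjured cells (0.390%). The uninjured ones lay mainly in 4 other clusters, and globin genes led the largest of these. The name of the injured cluster was settled after values had been seen and was lost under some settings, as stated beside the counts for astrocyte-like cells and for C3. By Xist and 4 Y-linked genes, 2133 uninjured astrocyte-like cells scored male and 2 scored female, against 126 and 73 in the injured library, so condition and sex can be told apart only within male cells.

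The C1q genes lie side by side on chromosome 4 (GRCm38, minus strand), with C1qb at chr4:136880129-136886187, C1qc at chr4:136889804-136893065 and C1qa at chr4:136895917-136898803. C3ar1 lies at chr6:122847138-122856161 and C3 at chr17:57203970-57228136, both on the minus strand. The promoters shown here are those of 3 of the members that were high in microglia-like cells (C1qb, C1qc and C3ar1) and of C3, which was highest in another class. C5ar1, also high in microglia-like cells, had a promoter with no match to the motifs below. Each runs from 250 bases before to 50 after the RefSeq start on GRCm38, 5′ to 3′ on the gene's strand. They are C1qb (chr4:136886151-136886450), C1qc (chr4:136892865-136893164), C3ar1 (chr6:122856108-122856407) and C3 (chr17:57228087-57228386). Capitals mark a match to a searched motif.
C1qb: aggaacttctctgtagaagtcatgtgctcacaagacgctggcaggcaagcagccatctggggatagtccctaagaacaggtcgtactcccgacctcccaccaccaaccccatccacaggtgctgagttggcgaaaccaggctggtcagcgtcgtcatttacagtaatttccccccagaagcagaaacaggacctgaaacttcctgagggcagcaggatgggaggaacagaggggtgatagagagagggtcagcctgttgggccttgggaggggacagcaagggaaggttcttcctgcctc
C1qc: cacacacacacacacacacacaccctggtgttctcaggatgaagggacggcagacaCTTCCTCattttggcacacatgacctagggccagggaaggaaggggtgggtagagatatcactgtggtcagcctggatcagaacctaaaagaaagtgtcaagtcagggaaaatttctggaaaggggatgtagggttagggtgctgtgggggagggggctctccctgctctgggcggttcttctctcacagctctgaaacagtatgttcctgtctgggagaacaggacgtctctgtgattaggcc
C3ar1: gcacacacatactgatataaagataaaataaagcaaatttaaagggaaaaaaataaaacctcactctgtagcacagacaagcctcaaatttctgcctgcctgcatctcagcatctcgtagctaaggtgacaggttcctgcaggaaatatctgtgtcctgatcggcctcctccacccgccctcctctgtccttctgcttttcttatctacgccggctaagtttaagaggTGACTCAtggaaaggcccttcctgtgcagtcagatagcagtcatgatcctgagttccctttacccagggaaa
C3: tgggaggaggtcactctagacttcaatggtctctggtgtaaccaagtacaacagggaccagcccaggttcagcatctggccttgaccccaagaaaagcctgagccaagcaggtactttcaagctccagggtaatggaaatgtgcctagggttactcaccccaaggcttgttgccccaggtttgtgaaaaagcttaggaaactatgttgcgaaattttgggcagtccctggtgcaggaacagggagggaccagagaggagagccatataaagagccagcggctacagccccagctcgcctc

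The motifs searched on both strands were the PU.1 core (GAGGAAG, the site of a myeloid factor), a STAT site (TTCNNNGAA), an AP-1 site (TGANTCA) and an interferon-stimulated response element. Among 32851 RefSeq promoters of this length, 13.6% held the PU.1 core, 8.30% the STAT site, 7.81% the AP-1 site and 3.44% the interferon element. Of the 7 members with a promoter in the table, C1qc held the PU.1 core, on the minus strand and starting 194 bases before the start. C3ar1 held an AP-1 site starting 22 bases before the start, C1ra held a STAT site after its start, and no member held the interferon element. The same match on both strands was counted once. These are matches of letters and were not tested for binding.

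C1q transcripts were carried by microglia-like cells in both conditions. In the injured library C1qa stood at 5757 CPM (95% interval 5649 to 5866), C1qb at 6059 CPM and C1qc at 3708 CPM in these cells. In the uninjured library they stood at 2934 CPM (2631 to 3261), 3909 CPM and 2737 CPM. No other class with at least 20 cells passed 22.1 CPM for any C1q gene in either library. Intervals here are exact Poisson for CPM, exact Clopper-Pearson for shares of cells and exact conditional binomial for ratios, and they cover counting error only.

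**Figure D1:**
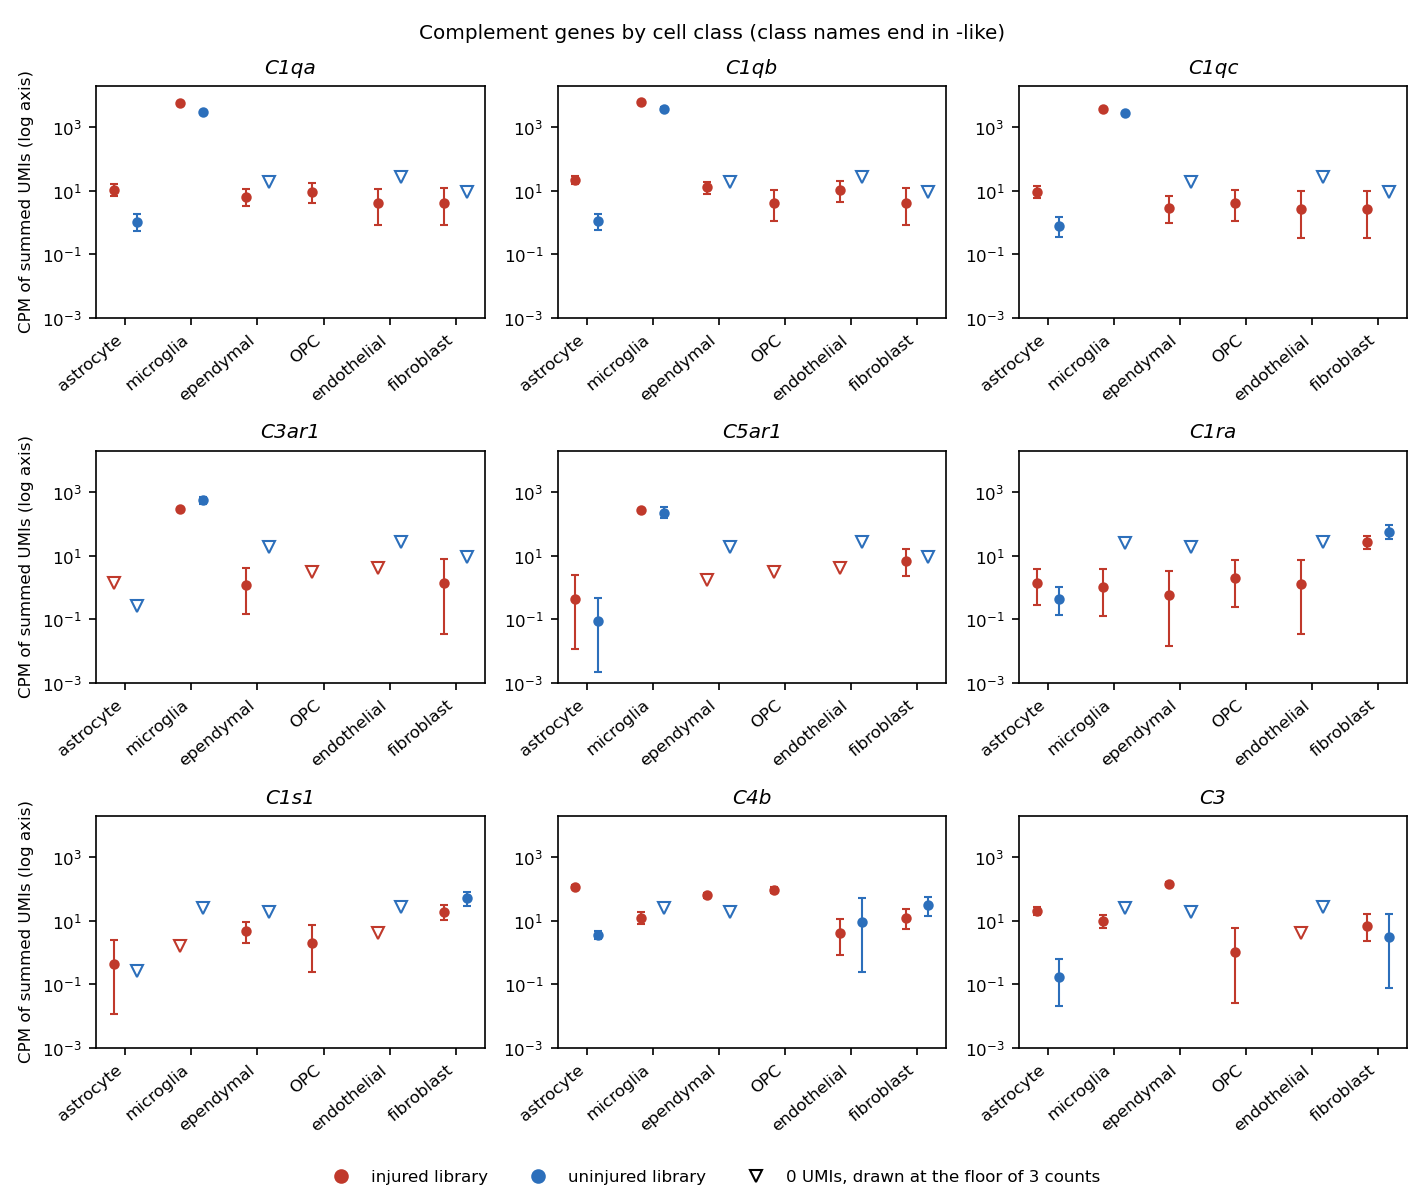
Levels of the 9 complement genes in each cell class with at least 20 cells in the library, as CPM of summed UMIs on a log axis, with injured cells in red and uninjured cells in blue. Points carry exact Poisson 95% intervals, and an open triangle marks 0 UMIs, drawn at the level of 3 counts. The C1q genes and both receptors stand highest in microglia-like cells and C1ra and C1s1 in fibroblast-like cells. C4b stands highest in injured astrocyte-like and OPC-like cells, and C3 in injured ependymal-like cells.

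Most microglia-like cells contained the C1q transcripts. In the injured library 88.1% of cells had a C1qa UMI, 88.9% a C1qb UMI and 86.5% a C1qc UMI, and in the uninjured library the shares were 93.5%, 90.3% and 90.3%. All C1q chains were found together in 103 of 126 injured and 28 of 31 uninjured cells, and none was found in 9 and 2 cells. The median cell held 13526 CPM of summed C1q in the injured library (quartiles 5112 and 20048) and 9409.8 CPM in the uninjured library (7410 and 10493). The spread between cells was thus wider after injury, in cells that were also deeper (median of 14070 UMIs against 3169).

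Between conditions, C1qa was 1.96 times as high in injured as in uninjured microglia-like cells (interval 1.76 to 2.19), C1qb 1.55 times (1.41 to 1.71) and C1qc 1.35 times (1.21 to 1.52). The chain whose share of the C1q sum differed most was C1qa, at 37.1% in injured and 30.6% in uninjured cells. Of 7 members at 10 CPM or more in at least 1 side, 2 passed a 2-fold difference of CPM + 1 upward (C4b and C3) and 0 passed it downward. Of all 8857 genes so filtered, 18.1% passed upward and 22.2% downward. Neither of the calls can be read as a change, since C4b (24 UMIs, 12.7 CPM) and C3 (19 UMIs, 10.1 CPM) in injured cells lay under the 25.7 CPM that 3 counts would give in the 31 uninjured cells, where both were at 0. The C1q ratios stayed under 2-fold.

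The microglia-like cells of both libraries held monocyte or macrophage markers, with 7 of 7 at 10 CPM or more in injured and 6 of 7 in uninjured cells. Shares of cells with a UMI were 39.7% and 19.4% for Ms4a7, 42.1% and 22.6% for F13a1 and 89.7% and 54.8% for Lyz2, but 12.7% and 19.4% for Mrc1, in cells that were deeper after injury. Ccr2, a monocyte chemokine receptor, had a UMI in 22 of 126 injured cells but 0 of 31 uninjured cells had one, and 3 counts there would be 9.68%. Summed C1q stood at 8715 CPM in the injured cells with a Ccr2 UMI and at 16679.6 CPM in those without one. In cells with a UMI of the microglial gene Tmem119 it stood at 19379.6 CPM, against 7443 CPM in those without. Over injured cells with neither Tmem119 nor P2ry12 (33 cells) C1qa was at 0.274 times the level of the other 93 cells (0.253 to 0.296), C1qb at 0.395 times (0.370 to 0.421) and C1qc at 0.291 times (0.265 to 0.320). In uninjured cells the sum was at 9902 CPM with and 9097 CPM without a Tmem119 UMI. Their part in the difference between conditions was not tested.

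The receptors followed the same cells. C3ar1, the receptor of C3a, stood at 293 CPM in injured and 564 CPM in uninjured microglia-like cells, a ratio of 0.519 (0.402 to 0.681). C5ar1, the receptor of C5a, stood at 279 CPM and 231 CPM, a ratio of 1.21 (0.820 to 1.85) whose interval spans equal levels. C3ar1 was found in 99 of 126 injured and 23 of 31 uninjured cells, and C5ar1 in 86 and 12 cells. Unlike the C1q genes, neither receptor was much lower in injured cells without Tmem119 and P2ry12, with ratios of 0.708 (0.553 to 0.896) for C3ar1 and 1.05 (0.842 to 1.30) for C5ar1. Outside the microglia-like class C3ar1 had 4 UMIs and C5ar1 had 7 UMIs over all other cells of both libraries.

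Within each library, microglia-like cells were set against astrocyte-like cells. In the injured library 5 of 7 members tested were higher in microglia-like cells (the C1q genes and both receptors) and 1 was lower (C4b), against 19.5% and 32.9% of all genes. C1qa was 533 times as high (358 to 832). C3ar1 had 0 UMIs in astrocyte-like cells, and the interval of its ratio started at 176. In the uninjured library 5 of 5 were higher and 0 lower, against 29.9% and 35.8% of all genes, with C1qa 2825 times as high (1597 to 5522). All 5 reached 10 CPM in microglia-like cells alone, with astrocyte-like levels of 1.12 CPM or less, so the filter fixed these calls. Both receptors entered the injured count in the same way.

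Astrocyte-like cells held few C1q transcripts, and these were concentrated in few cells. The injured class had 94 UMIs of summed C1q (42.3 CPM, 34.2 to 51.8) in 43 of 389 cells, and 5 cells held 53.2% of them. The uninjured class had 34 UMIs (2.94 CPM, 2.04 to 4.11) in 18 of 3077 cells, and 17 of these UMIs lay in 1 cell. The C1q genes of injured astrocyte-like cells stood at 0.188 to 0.364% of their level in microglia-like cells of the same library. Over 10 other microglial genes that value had a median of 0.291%, and Csf1r was at 0. In the uninjured library C1q stood at 0.0285 to 0.0354%, against a median of 0.0475% for the 10 genes. C1q in astrocyte-like cells was thus within the range of other microglial transcripts there and is not counted as expression by these cells. RNA from other cells, doublets and expression were not tested against each other, and the UMIs were uneven between cells as given above. Of 9 microglial markers 2 passed 10 CPM in injured astrocyte-like cells, and Csf1r and Tmem119 were at 0.

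**Figure D2:**
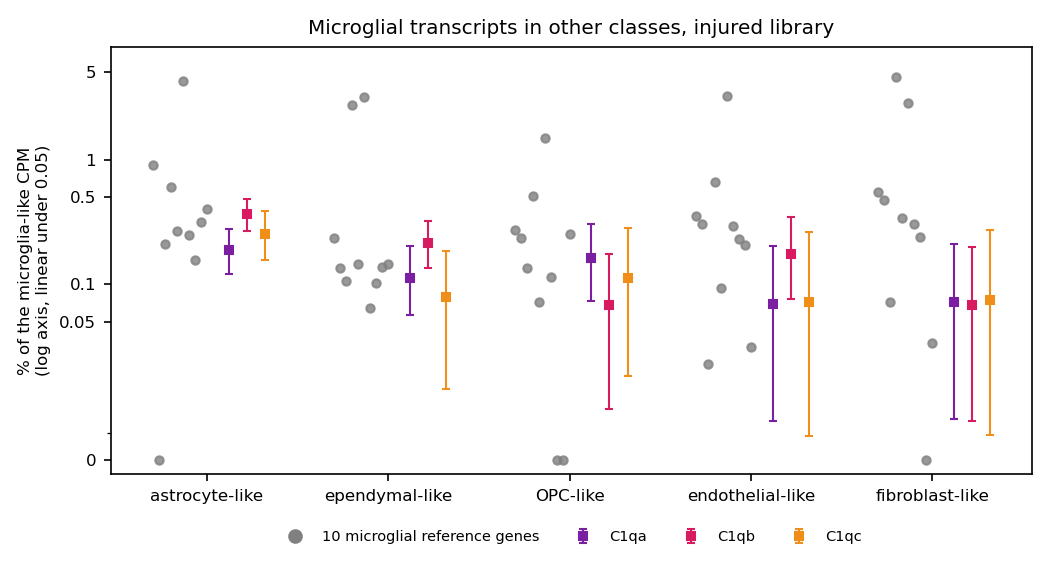
Level of each C1q gene (coloured squares with exact 95% intervals) and of 10 microglial reference genes (grey points) in 5 other classes of the injured library, as a percent of the level in microglia-like cells, on a log axis that is linear under 0.05%. The C1q genes lie among the reference genes in every class drawn, between 0.188 and 0.364% in astrocyte-like cells.

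C4b, the mouse C4 gene, was the member with the most UMIs in astrocyte-like cells. It stood at 118 CPM (104 to 133, 262 UMIs) in the injured and at 3.63 CPM (2.62 to 4.91, 42 UMIs) in the uninjured library, a ratio of 32.5 (23.4 to 46.1). A C4b UMI was found in 119 of 389 cells after injury (30.6%, interval 26.0 to 35.4%). Without injury it was found in 37 of 3077 cells (1.20%, interval 0.848 to 1.65%). With every cell thinned to 1000 gene UMIs, leaving out 34 injured and 66 uninjured shallower cells, the shares were 11.3% and 0.332%. The signal was spread over cells, since 64 injured cells held 2 or more C4b UMIs and the 5 highest cells held 14.1% of them.

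**Figure D3:**
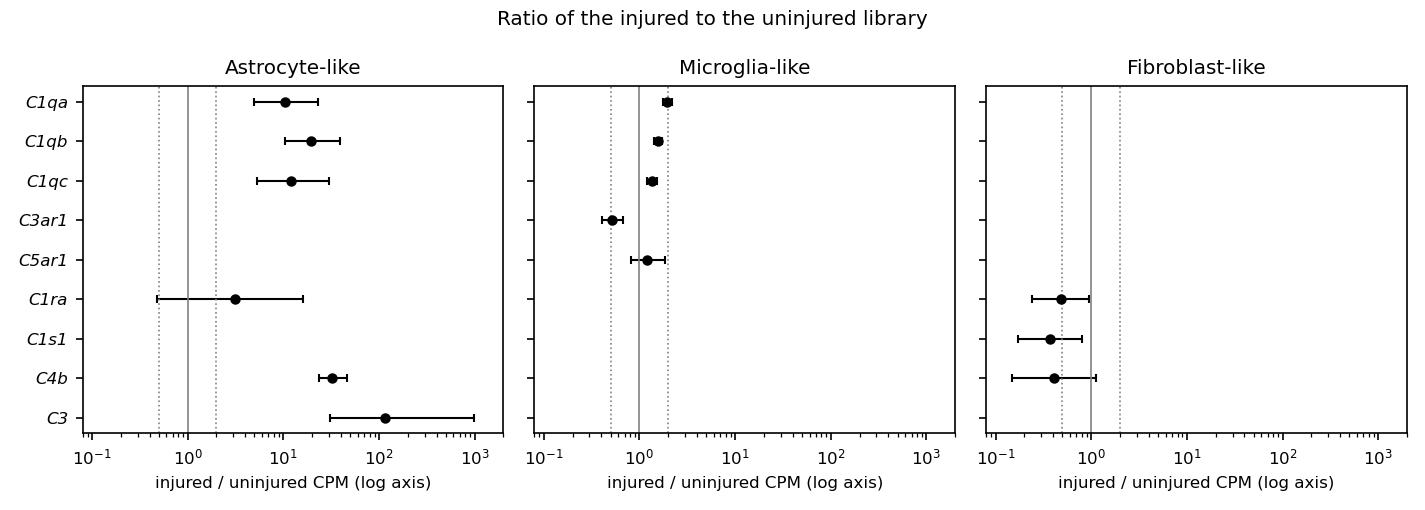
Ratio of the injured to the uninjured level of each member in astrocyte-like, microglia-like and fibroblast-like cells, on log axes, with exact conditional binomial 95% intervals. Solid lines mark equal levels and dotted lines a 2-fold difference, and members with 0 UMIs on either side or fewer than 8 in all are left out. C4b and C3 lie at 32.5 and 117 in astrocyte-like cells, the C1q genes of microglia-like cells lie under 2, and C1ra, C1s1 and C4b lie under 0.5 in fibroblast-like cells.

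The C4b difference was also found within clusters 4 and 8, astrocyte-like clusters that held at least 20 cells of each library. Injured cells of cluster 8 (29 cells, led by Hes5) stood at 309 CPM (230 to 406), those of cluster 4 (26 cells) at 168 CPM (76.8 to 319) and those of cluster 3, the main injured cluster, at 100.3 CPM (86.8 to 115). Uninjured cells stood at 9.84 CPM in cluster 8, at 1.80 CPM in cluster 4 and in between in clusters 9 and 12. The 68 injured cells outside cluster 3 were at 241 CPM against 3.48 CPM in uninjured cells outside it, a ratio of 69.1 (46.0 to 105). The level was thus higher in the fewer injured cells outside the main cluster than within it, by 2.40 times (1.79 to 3.18). Within male-scored cells C4b stood at 131 CPM and 2.79 CPM, a ratio of 47.0 (30.5 to 75.2).

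**Figure D4:**
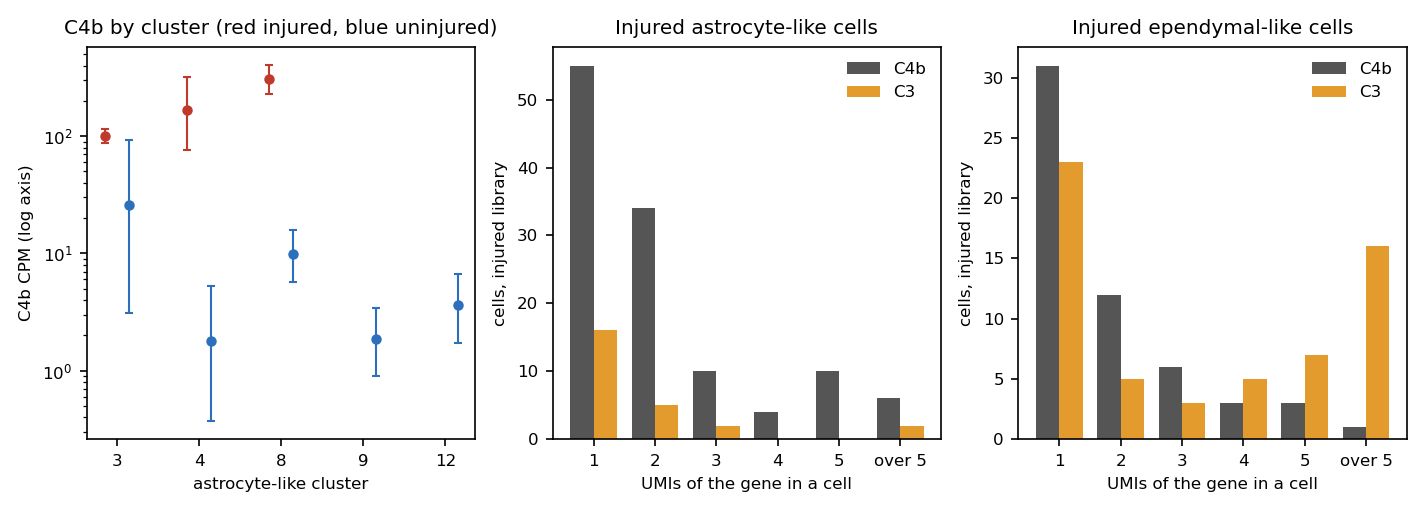
Left, C4b level in the astrocyte-like clusters by library, as CPM on a log axis with exact Poisson 95% intervals, for groups of at least 20 cells and for cluster 3. Middle and right, the number of injured astrocyte-like and ependymal-like cells by their UMIs of C4b (grey) and C3 (orange), without cells at 0. Injured groups lie between 100.3 and 309 CPM and uninjured groups of more than 12 cells between 1.80 and 9.84 CPM, and 16 ependymal-like cells hold over 5 C3 UMIs.

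C4b was not lower in the injured astrocyte-like cells that lacked Lcn2 and Timp1, genes of reactive astrocytes that stood at 272 and 353 CPM in the main injured cluster. Cells without a UMI of either held 145 CPM of C4b and cells with one held 99.2 CPM, a ratio of 1.46 (1.14 to 1.87). The gene whose level across the 13 class and condition sums was most like that of C4b was Serpina3n, a protease inhibitor gene of reactive glia, with Pearson r = 0.915 on log2(CPM + 1). Serpina3n stood at 348 CPM in injured and 7.79 CPM in uninjured astrocyte-like cells, and at 867 CPM in injured OPC-like cells. Mrpl16, Chst2, Rad1 and Slc2a3 followed with r between 0.816 and 0.875. These sums share their libraries, and 14706 genes were ranked.

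Other glial classes of the injured library carried C4b as well. OPC-like cells stood at 95.9 CPM (77.4 to 118), with a UMI in 29 of 41 cells, and the ratio to astrocyte-like cells was 0.813 (0.635 to 1.03). Of 4 members tested between those classes 0 were higher in OPC-like cells and 2 lower (C1qb and C3), against 23.4% and 14.6% of all genes. C1qb and C3 entered through astrocyte-like cells, with 4.13 and 1.03 CPM in OPC-like cells, so the filter fixed these calls. Ependymal-like cells stood at 63.1 CPM (51.7 to 76.3), with a UMI in 56 of 144 cells, and at 0.535 times (0.423 to 0.673) the astrocyte-like level. After thinning, 12.2% of OPC-like, 11.3% of astrocyte-like and 9.09% of ependymal-like cells had a C4b UMI. Microglia-like cells (12.7 CPM), fibroblast-like cells (12.5 CPM) and endothelial-like cells (4.01 CPM) were lower. In order of level the intervals of astrocyte-like and OPC-like cells overlapped, and so did those of microglia-like, fibroblast-like and endothelial-like cells. The 14 uninjured OPC-like and 31 uninjured ependymal-like cells held no C4b UMI. Injured ependymal-like cells stood 3.34-fold above the level that 3 counts would give in the uninjured ones.

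C3, the central protein of all complement pathways, was highest in ependymal-like cells of the injured library. It stood there at 146 CPM (128 to 165, 247 UMIs), with a UMI in 59 of 144 cells (41.0%, 32.9 to 49.5%) and 2 or more in 36 cells. None of the 31 uninjured ependymal-like cells held a C3 UMI, with an interval that reached 23.3 CPM. The injured level was 7.70-fold above the 18.9 CPM that 3 counts would give there. All 6 ependymal markers were at 235 CPM or more in the injured and 278 CPM or more in the uninjured class. Of 3 members tested in this class, 3 passed upward (C4b, C3 and C1qb) and 0 downward, against 12.1% and 16.1% of all genes. Every member had 0 UMIs in the uninjured class, so any member that entered had to pass upward. C1qb, with 22 UMIs in the injured class, lay under the level that 3 counts would give in the uninjured class.

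In astrocyte-like cells C3 was rarer. It stood at 20.3 CPM (14.8 to 27.1, 45 UMIs) in 25 of 389 injured cells and at 0.173 CPM (2 UMIs) in 2 of 3077 uninjured cells, a ratio of 117 (30.6 to 996). No ratio within male-scored cells is given for C3, although the scored uninjured astrocyte-like and ependymal-like cells were almost all male. In both classes of the injured library C3 was higher in female-scored cells, as given under the other observations. The 5 highest cells held 46.7% of the injured UMIs, and 44 of the 45 UMIs lay in cluster 3. Outside cluster 3 injured astrocyte-like cells held 1 C3 UMI (3.59 CPM). Where that cluster had no name the log2 difference fell from 4.18 to 2.14 (complement genes kept in the clustering) or 2.08 (50 CPM naming minimum). C3 then lay under the 10 CPM needed to enter the comparison and so was not counted. Under these settings, and with at least 1000 UMIs per cell, C3 of microglia-like cells turned from below to above the astrocyte-like level. The comparison with ependymal-like cells was not recomputed under them. Ependymal-like cells stood at 7.19 times (5.22 to 10.1) the astrocyte-like level, and this was the only member of 4 tested that passed upward, with 0 passing downward, against 19.4% and 18.4% of all genes. Ependymal markers were low in injured astrocyte-like cells, where 0 of 6 passed 10 CPM. Microglia-like cells (10.1 CPM), fibroblast-like cells (6.93 CPM) and OPC-like cells (1.03 CPM) were lower still, and endothelial-like cells held no C3 UMI.

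C3 and C4b met in the same ependymal-like cells only in part. Of 144 injured cells 31 had UMIs of both, 25 of C4b alone, 28 of C3 alone and 60 of neither. In injured astrocyte-like cells the counts were 15, 104, 10 and 260, so most cells with C4b held no C3 UMI at this depth. The gene most like C3 across the 13 sums was Gm17359 (r = 0.913), which had 34 UMIs in all, followed by Crym (r = 0.819), 9530053A07Rik and Uhrf1bp1l.

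Over the astrocyte-like class as a whole, 4 of 9 members reached 10 CPM in at least 1 library and 4 passed the 2-fold difference upward (C1qa, C1qb, C4b and C3), with 0 downward. Of all 9977 genes so filtered, 14.4% passed upward and 7.27% downward, with a median log2 difference of 0.04 over all genes and 3.81 over the 4 members. All 4 members reached 10 CPM in the injured library alone, with uninjured levels of 3.63 CPM or less. The filter thus fixed their calls as upward, and neither the count nor the median can be read as a result. The C1q part of this count rests on the low and uneven counts described above. Among cells without a UMI of any of 5 microglial markers (223 injured cells) 3 members passed. Where complement genes were kept in the clustering, or the leading genes of a cluster had to reach 50 CPM, the main injured cluster lost its name and 69 or 68 injured astrocyte-like cells remained. Only C4b then passed, and C1qb turned from higher to lower in the injured class (log2 difference of -0.60 and -0.61). All 49 C1qb UMIs of injured astrocyte-like cells lay in the main injured cluster, and the uninjured class held 13 (1.12 CPM). This turn thus rests on few UMIs and cannot be read as a lower level. With at least 1000 UMIs per cell 110 injured cells remained and 1 member passed. C4b stayed higher in injured cells under all 15 alternatives, with log2 differences from 3.23 to 6.03.

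The C1 proteases C1ra and C1s1, which form C1 with C1q, were found mainly in fibroblast-like cells. C1ra (chr6:124512405-124523443) stood at 27.7 CPM in injured and 57.8 CPM in uninjured fibroblast-like cells, with 20 and 19 UMIs, and C1s1 (chr6:124530345-124542359) stood at 19.4 and 51.8 CPM, with 14 and 17 UMIs. No other class with at least 20 cells passed 4.72 CPM for either gene. The 13 injured mural-like cells, too few for a level, held 5 C1s1 UMIs in 3 cells and 1 C1ra UMI. Of 6 members tested in the injured library, 2 were higher in fibroblast-like than in astrocyte-like cells (C1ra and C1s1) and 4 lower (C1qa, C1qb, C4b and C3), against 20.8% and 23.1% of all genes. C1ra and C1s1 entered through fibroblast-like cells, with 1.35 and 0.450 CPM in astrocyte-like cells, so the filter fixed these calls. The same holds for C1qa and C1qb, which entered through astrocyte-like cells with 4.16 CPM each in fibroblast-like cells. The ratios were 20.5 (6.09 to 108) for C1ra and 43.1 (6.56 to 1823) for C1s1.

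Between conditions, C1ra was at 0.479 times (0.243 to 0.949) and C1s1 at 0.375 times (0.171 to 0.808) the uninjured level in fibroblast-like cells, and C4b was at 0.410 times (0.147 to 1.12). Of 3 members tested 0 passed upward and 3 downward, against 14.6% and 17% of all genes. Injured fibroblast-like cells all lay in cluster 7, which held 47 uninjured cells, and the other 48 uninjured cells formed cluster 13. Within cluster 7 the ratios were 0.517 (0.210 to 1.45) for C1ra and 0.844 (0.236 to 4.58) for C1s1, and neither passed the 2-fold difference. C4b was at 0.271 times (0.0863 to 0.926) within cluster 7, from 9 and 6 UMIs.

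Some members have near copies in the mouse genome. C4a, the copy of C4b, had 0 and 1 UMIs in the injured and uninjured libraries against 503 and 65 of C4b, C1rb had none, and C1s2 had 1 and 5 UMIs. In the last 1000 bases of the transcripts, where this assay reads, 17.0% of 90-base windows of C4b were also in C4a, 19.2% of C1ra windows in C1rb and 1.21% of C1s1 windows in C1s2. Reads from shared windows can be lost, so the levels of C4b and C1ra may be understated to an extent that was not measured.

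Of 49 other complement genes, 26 reached 10 CPM in at least 1 class. They comprised 3 of 14 recognition and initiation genes, 1 of 3 alternative pathway genes, 3 of 7 terminal pathway genes, 5 of 7 receptors and 14 of 18 regulators. In astrocyte-like cells 5 of 12 tested passed upward after injury and 4 downward, against 14.4% and 7.27% of all genes. Those higher were Clu (clusterin, an inhibitor of the membrane pore, 5431 and 879 CPM), Serping1 (the C1 inhibitor, 10.8 and 0.692 CPM), Cd59a and Cd59b (which block the pore) and Csmd1. Those lower were Masp1 (a lectin pathway protease), Colec12, Cd46 (16.2 and 44.6 CPM) and Csmd2 (19.4 and 109 CPM).

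Fibroblast-like cells had the highest levels of the soluble regulators Serping1 and Vtn (vitronectin). Serping1 stood at 646 CPM after injury and at 1477 CPM without it, and Vtn stood at 613 and 1212 CPM. Of 15 pathway genes tested there 6 passed upward and 4 downward, against 14.6% and 17% of all genes. As stated for C1ra and C1s1, 48 of the uninjured cells lay in cluster 13, which held no injured cell. Ratios of the pathway genes within cluster 7 are not given here. The intervals of Cd59b (5 UMIs in each library), Csmd3 (4 and 7) and Susd4 (16 and 2) span equal levels. C6 and C7 of the terminal pathway were found, among classes of at least 20 cells, in injured fibroblast-like cells alone (15 and 17 UMIs). They stood 2.28-fold and 2.58-fold above the level that 3 counts would give in uninjured cells. Hc, the gene of C5, was found mainly in ependymal-like cells, at 18.9 and 31.5 CPM from 32 and 5 UMIs.

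The remaining pathway genes showed where receptors and regulators were placed. In ependymal-like cells 1 of 13 passed upward and 2 downward, against 12.1% and 16.1% of all genes. Serping1 passed upward with 167 CPM against 0, 8.82-fold above the level of 3 uninjured counts. One of those downward, Sez6l2, had 9 and 3 UMIs and an interval that spans equal levels. Cd55, which dissociates the C3-cutting enzyme, stood at 248 and 227 CPM in these cells. In microglia-like cells Itgam and Itgb2, the chains of complement receptor 3, stood at 343 and 161 CPM after injury and at 274 and 103 CPM without it. There 3 of 11 passed upward (Cfp, Itgax and Cr1l) and 2 downward (Clu and Csmd3), against 18.1% and 22.2% of all genes. Cfp, properdin, had 114 UMIs against 0. It stood 2.35-fold above the level of 3 uninjured counts, and the interval of its ratio started at 1.88. Itgax, with 20 UMIs against 0, lay under the level of 3 uninjured counts, and the intervals of Cr1l (0.721 to 10.7) and Clu span equal levels, so these cannot be read as changes. In endothelial-like cells 0 of 11 passed upward and 5 downward, against 14.7% and 16.7% of all genes. Of these Cfp (1 and 2 UMIs), Serping1 (0 and 2) and Csmd2 (1 and 2) lay under 3 counts in both libraries and cannot be read as changes, which leaves Clu (22 and 12) and Vtn (2 and 59). In injured and uninjured endothelial-like cells summed mural markers stood at 33.4 and 302 CPM, and summed astrocyte markers at 96.1 and 519 CPM. The part of such transcripts in the Clu and Vtn differences was not tested. Cd93 stood at 542 and 368 CPM. The only member tested in endothelial-like cells was C1qb, which passed upward, from 8 UMIs against 0 and at a level under that of 3 counts in the 26 uninjured cells.

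Across all 13 class and condition sums the genes most like summed C1q were Fcer1g (r = 0.980), Lyz2 (0.954), Trem2 (0.953), Ctss (0.952) and Wfdc17 (0.943), all at their highest level in injured microglia-like cells. The correlations are descriptions over sums that share 2 libraries.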

How the data were processed

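The deposited matrices held raw UMI counts per gene and cell, made by the authors with Cell Ranger (7.1.0 in the file headers, 8.0.1 in the submitters' processing notes, which also name mm10) and not normalised. The count filter of the methods (over 500 and under 50000) was applied to gene UMIs and removed 40 injured cells. After scaling each cell to a total of 10000 and taking logarithms, Leiden clustering at resolution 0.5, on 15 neighbours in 15 principal components of 2000 variable genes, gave 14 clusters (scanpy 1.11.5, igraph 0.11.9, scipy 1.17.1, Python 3.11.15). The clustering did not use the members, the 49 other complement genes, tdTomato-WPRE or EGFP. Enhancer barcodes were not used here. No doublets were removed.

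A cluster took the class of highest mean marker score (above 0.2) among 13 classes provided that 3 or more markers of the class were each present in 10% of cells or more. In addition, the 10 genes of highest fold could not hold more markers of a different class. This named 12 clusters. A minimum of 50 CPM for those 10 genes was tried first and left the main injured cluster unnamed. It was dropped, as no such minimum had been planned, after member values had been seen, and is kept as an alternative.

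Levels are CPM of UMIs summed over a class. Genes that reached 10 CPM on either side entered a comparison, and those whose CPM + 1 differed 2-fold were counted. With 1 library per condition there were no tests. Folds against 0 used a floor of 3 counts over the group and are not lower limits. The depth was 8499672 UMIs in the injured and 15543460 in the uninjured library. Cells with an Xist UMI and none of Ddx3y, Eif2s3y, Kdm5d or Uty were scored female, and the reverse male. The ratio and interval scripts were tested on simulated data.

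Gene positions are from GENCODE M21 (GRCm38), to which 32158 of 32285 Ensembl identifiers matched, and promoters from RefSeq. The members, pathway list, markers and tests were chosen with earlier results of these data known. Genes named in the text were the members, pathway genes that reached 10 CPM in a class of at least 20 cells, paralogs, the 5 genes most correlated with summed C1q, C4b and C3, and Gfap, Lcn2, Timp1, Serpina3n and the sex genes where a result turned on them. Marker genes are named from the marker lists. Some genes that fall under this rule are not reported here.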

Additional observations from a re-analysis of the deposited data

How the results depend on the processing

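No paired analysis was possible because there was 1 library a condition, and for the same reason no replicate could be left out. Under the alternatives 200 values of single-gene ratios moved by no more than their counting error, 21 moved further and 2 reversed, and 122 values of counts and levels held and 34 moved. Both reversals were C1qb in astrocyte-like cells, at a log2 difference of -0.60 with complement genes kept in the clustering and -0.61 with a 50 CPM minimum for naming genes, where the main injured cluster had no name. That cluster held all 49 C1qb UMIs of the injured class, so the reversals cannot be read as lower levels. In astrocyte-like cells 4 members passed upward, against 1 with at least 1000 UMIs per cell, with complement genes kept, with a minimum of 50 CPM and with the 50 CPM naming minimum, 2 in male cells and 7 in cells with an Aldh1l1 UMI. In microglia-like cells 2 passed upward, against 1 in male cells and 0 with a minimum of 50 CPM or without the cell with the most UMIs, and 0 passed downward, against 1 in male cells. Between microglia-like and astrocyte-like cells, those lower were 1 in the injured library, against 2 at Leiden resolution 1.0, with a pseudocount of 0.1 or without the top cell, and 0 in the uninjured library, against 1 without a CPM minimum. Between fibroblast-like and astrocyte-like cells those higher were 2, against 0 with no filter on cells or a minimum of 50 CPM and 4 without a CPM minimum. Those lower were 4, against 2 in male cells and with a pseudocount of 10, and 1 with at least 1000 UMIs, with complement genes kept, with a minimum of 50 CPM and with the 50 CPM naming minimum. In ependymal-like cells 3 passed upward, against 7 without a CPM minimum. The share of cells with a C4b UMI in injured astrocyte-like cells was 11.3% after thinning and 16.5% where 2 UMIs were asked, and in uninjured ones 0.332% and 0.0650%. As means of per-cell values C4b stood at 149.6 and 6.19 CPM and C1qa of injured microglia-like cells at 5077 CPM. The share of injured ependymal-like cells with C3 was 9.09% after thinning and 25.0% at 2 UMIs, and of microglia-like cells with C1qa 80.99% after thinning. Except where a minimum or a count of cells explains it by construction, the cause was not tested. The 31 uninjured microglia-like and 31 ependymal-like cells limit every comparison of those classes, as 3 counts there are worth 25.7 and 18.9 CPM.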

Other observations

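Within the injured library, cells scored female and male could be set side by side, although they come from different animals and neither has a replicate. C3 in ependymal-like cells stood at 204 CPM in 59 female-scored and 101 CPM in 64 male-scored cells, a ratio of 2.02 (1.53 to 2.67). In astrocyte-like cells C3 stood at 34.0 CPM in 73 female-scored and 12.9 CPM in 126 male-scored cells, a ratio of 2.64 (1.27 to 5.70), from 22 and 13 UMIs. For C4b the ratios were 0.945 (0.707 to 1.26) in astrocyte-like, 1.38 (0.905 to 2.11) in ependymal-like and 1.26 (0.814 to 1.98) in OPC-like cells, and all of these intervals span equal levels. In microglia-like cells the ratio was 1.20 (1.16 to 1.25) for C1qa, 1.03 (0.868 to 1.23) for C3ar1 and 1.60 (1.33 to 1.93) for C5ar1. Sex and animal cannot be told apart here.

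In the injured microglia-like cells without Tmem119 or P2ry12, C3 stood at 32.2 CPM (12 UMIs) against 4.61 CPM (7 UMIs) in those with either, a ratio of 6.98 (2.53 to 20.9), in the same cells in which the C1q genes were lower. Few cells carry these values, as the 19 C3 UMIs lay in 9 of 126 cells and 5 cells held 78.9% of them.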
